A study of Mus musculus with 6 samples.

Results

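Glycosyltransferases and glycan sulfotransferases are the enzymes of the Golgi and endoplasmic reticulum that build the sugar chains of glycoproteins, glycolipids and proteoglycans. The genes described here were taken by symbol, as the rows of the gene table whose symbol starts with B3gnt, B3gal, B4gal, St3gal, St6gal, St8sia, Galnt, Fut and a digit, Mgat, Chst, Chsy, Extl, Ndst, Hs2st, Hs3st, Hs6st, Gcnt or Xylt, or is Ext1, Ext2, Has1, Has2 or Has3. This rule found 83 of 15212 genes, of which 78 had enough counts to be tested and 5 did not. Their RNA was measured by bulk RNA-Seq in lung group 2 innate lymphoid cells (ILC2s), lymphocytes without a rearranged antigen receptor that answer IL-33 with type 2 cytokines.

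The comparison was between 3 libraries of Vsir-/- ILC2s, which lack the gene of the checkpoint receptor VISTA, and 3 libraries of WT ILC2s. Mice of both genotypes were on a BALB/c background, the knockout mice coming from the strain B6N.129S5(B6)-Vsirtm1Lex/Mmucd, and were 5 to 8 weeks old and sex-matched. All received 0.5 µg of intranasal rmIL-33 on 3 days, so both groups hold activated ILC2s (aILC2s), and cells were isolated on day 4 as CD45+, lineage-negative, ST2+ and CD127+ cells. The labels speak of freshly isolated as well as of cultured cells, and 10 pg of RNA per library was amplified with a SMARTer kit. It is not stated whether the libraries of a genotype came from separate mice, so p-values measure only the spread between these libraries.

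Glycans grow one sugar at a time, and each transferase adds one kind of sugar to one kind of acceptor, so that the set of transferases in a cell shapes which chains its surface proteins carry. N-glycans are trimmed and then branched by the Mgat enzymes, O-glycans of the mucin type are started by the Galnt enzymes and extended by Gcnt enzymes, and both are finished with galactose, fucose and sialic acid. Heparan and chondroitin sulfate chains are polymerised by Ext and Chsy enzymes on proteoglycans and are then sulfated. On lymphocytes these finished chains are known as ligands of selectins, siglecs and galectins and as binding sites for chemokines and growth factors.

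Vsir was at 0, 2 and 0 counts in the Vsir-/- libraries, against 109, 185 and 126 counts in the WT libraries (exact permutation test, two-sided, p = 0.1, which is the lowest p possible with 3 against 3). Library totals lay between 15747208 and 16638125 counts in Vsir-/- and between 15680892 and 29197999 in WT, and a count of 3, taken as the limit for a gene at 0, was worth 0.103 to 0.191 CPM (counts scaled to the total of the library). Mitochondrial transcripts took 0.334% to 0.553% of the counts in Vsir-/- and 0.452% to 0.585% in WT. All 12 ILC2 markers were present. Their summed level, mostly Il5 and Il2ra, was 23397 to 25779 CPM in Vsir-/- and 15028 to 15546 CPM in WT. Of the 12, 5 were called higher (Il7r, Il2ra, Il5, Il13 and Areg) and 5 lower (Gata3, Icos, Thy1, Rora and Klrg1). Markers of other cells were low but differed. T cell markers (3 of 7 analysed) summed to 12.6 to 17.7 CPM in Vsir-/- and 45.8 to 51.4 CPM in WT, NK cell markers (3 of 5) to 5.95 to 12.1 and 87.3 to 99.3 CPM, mostly Gzma, and monocyte, macrophage and dendritic cell markers (7 of 10) to 39.8 to 43.6 and 67.2 to 85.1 CPM. Epithelial markers (6 of 10), mostly Epcam, summed to 5.52 to 6.48 CPM in Vsir-/- and 23.5 to 24.1 CPM in WT, and Pecam1 stood alone for endothelium at 47.9 to 53.2 and 35.2 to 41.8 CPM. B cell markers (2 of 5) summed to 10.8 to 14.8 and 11.3 to 17.2 CPM, granulocyte and mast cell markers (3 of 9) to 2.98 to 5.87 and 1.98 to 2.85 CPM, and fibroblast markers (2 of 7) to 1.56 to 3.83 and 3.08 to 4.27 CPM. Their part in the results on glycan enzymes was not tested. In bulk libraries such as these, fewer cells of a type and less RNA per cell cannot be told apart.

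More of these genes fell than rose in Vsir-/- aILC2s. Of the 78 tested, 28 were called lower (35.9%, against 20.1% of all 13166 tested genes) and 14 higher (17.9%, against 18.9%), by edgeR's quasi-likelihood test with a Benjamini-Hochberg adjusted p under 0.05 over all genes. In either direction 42 were called (53.8%, against 38.9% of all genes). An unadjusted p under 0.05 was found for 53 of the 78, and for 6221 of all 13166 genes. The median log2 fold change of Vsir-/- over WT was -0.24 over the 78 genes and -0.01 over all tested genes. For 51 of the 78 genes no library of one genotype reached into the range of the other, where 49.4% of all genes behave so. A fall or rise of more than 2-fold was seen for 18 called genes, 7 higher and 11 lower. Called or not, a log2 fold change under -1 was found for 12 of the 78 genes (15.4%, against 6.46% of all genes). A value over 1 was found for 7 (8.97%, against 4.86%). In sum the 83 genes took 0.270% to 0.288% of the counts of Vsir-/- libraries and 0.299% to 0.340% of those of WT libraries, so every Vsir-/- library lay below every WT library.

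**Figure D1:**
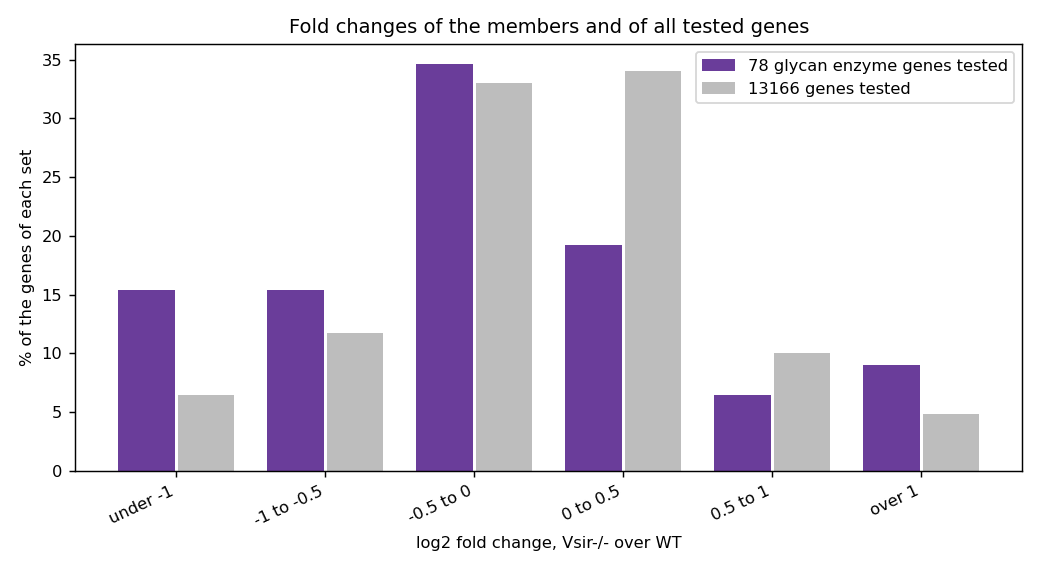
Share of genes (in %) by their log2 fold change of Vsir-/- over WT, for the 78 tested glycan enzyme genes (purple) and for all 13166 tested genes (grey). Of the 78 genes, 15.4% lay under -1 and 15.4% between -1 and -0.5, against 6.46% and 11.7% of all genes, and 8.97% lay over 1, against 4.86% of all genes.

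Per length of transcript, the same 4 genes stood highest in both genotypes among those with a known exon length. Mgat2, which adds the second branch of complex N-glycans, had 85.1 CPM per kilobase of exon in Vsir-/- and 86.3 in WT. B4galnt1, the synthase of the gangliosides GM2 and GD2, had 52.4 and 62.4, Galnt1 46.0 and 56.6, and Chst12, a chondroitin sulfotransferase, 41.2 and 40.2 CPM per kilobase in Vsir-/- and WT. None of these 4 was called by edgeR. Of the 81 genes with a known exon length, 15 share over 10% of their exon bases with other annotated genes, among them St3gal6 (26.0%), B4galnt1 (20.7%), B3gnt8 (18.1%), Chst15 (17.9%), St3gal4 (14.1%), B3gnt7 (12.6%), Galnt6 (11.4%) and Gcnt4 (10.5%), and their values are uncertain to that extent.

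**Figure D2:**
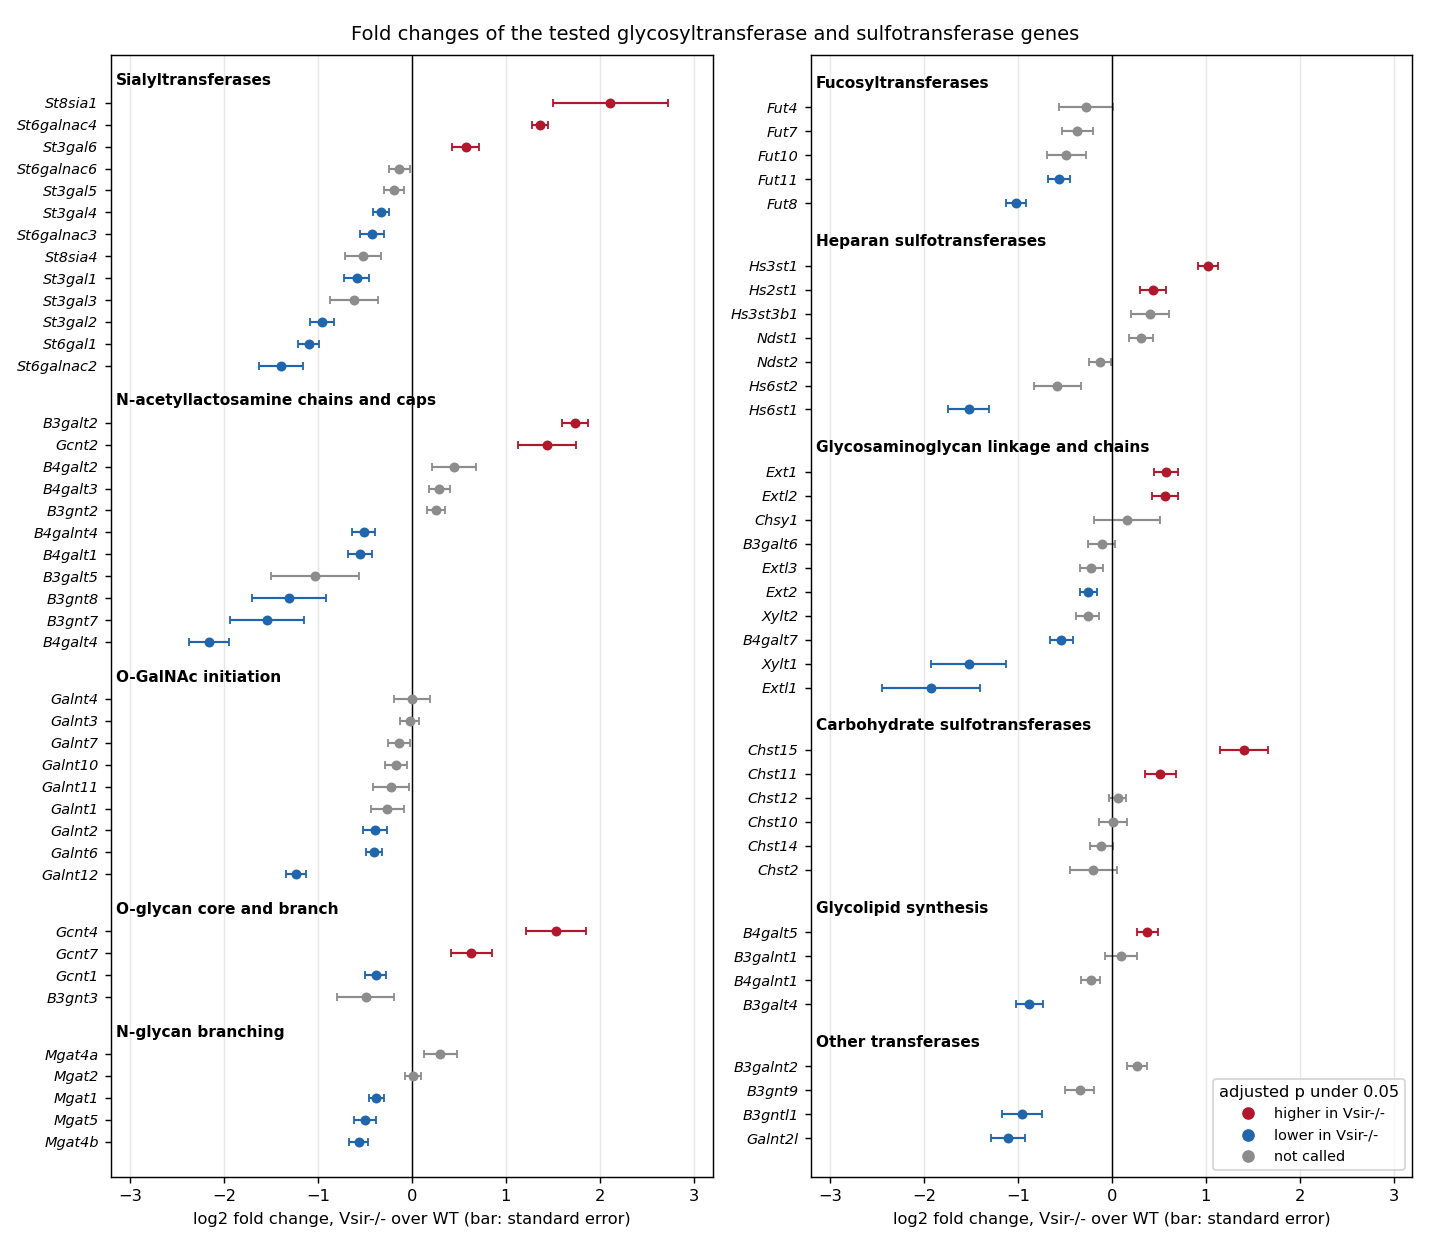
Log2 fold change of Vsir-/- over WT (x axis, bars are standard errors) of the 78 tested genes, grouped by the role of the enzyme. Red points were called higher in Vsir-/-, blue points lower, and grey points were not called. Fucosyltransferases, N-glycan branching enzymes, starters of O-glycans and other transferases hold no red point. St8sia1, B3galt2, Gcnt4, Gcnt2, Chst15, St6galnac4 and Hs3st1 lie beyond 1 on the higher side.

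The start regions of 4 genes are shown because these genes had large and opposite changes and a single start in the RefSeq table, so that a reader can see what lies upstream of each. St6galnac4 and B3galt2 were higher in Vsir-/-, B4galt4 and Hs6st1 lower. Each sequence is the RefSeq promoter window of build GRCm38.p6, 250 bases before to 50 bases after the start, written 5′ to 3′ on the gene's strand, with matches to the motifs named below in capitals.
St6galnac4 chr2:32586828-32587127 (+ strand): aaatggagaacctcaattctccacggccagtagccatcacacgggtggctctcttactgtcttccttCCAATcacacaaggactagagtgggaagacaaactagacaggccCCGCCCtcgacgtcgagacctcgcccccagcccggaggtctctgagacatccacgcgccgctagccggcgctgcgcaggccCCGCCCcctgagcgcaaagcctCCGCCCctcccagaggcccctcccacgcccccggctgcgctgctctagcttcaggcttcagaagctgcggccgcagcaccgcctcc
B3galt2 chr1:143640447-143640746 (+ strand): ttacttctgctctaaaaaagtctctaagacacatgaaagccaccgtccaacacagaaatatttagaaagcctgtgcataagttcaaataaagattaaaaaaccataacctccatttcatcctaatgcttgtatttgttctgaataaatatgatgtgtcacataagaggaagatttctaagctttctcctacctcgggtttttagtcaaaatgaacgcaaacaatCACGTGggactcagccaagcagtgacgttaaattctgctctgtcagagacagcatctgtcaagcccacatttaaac
B4galt4 chr16:38742009-38742308 (+ strand): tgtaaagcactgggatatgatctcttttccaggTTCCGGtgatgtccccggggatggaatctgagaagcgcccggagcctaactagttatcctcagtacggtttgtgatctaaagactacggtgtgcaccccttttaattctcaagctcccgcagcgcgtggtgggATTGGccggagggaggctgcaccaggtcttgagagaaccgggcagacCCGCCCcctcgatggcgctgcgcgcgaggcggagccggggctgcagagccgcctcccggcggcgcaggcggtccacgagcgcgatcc
Hs6st1 chr1:36068150-36068449 (+ strand): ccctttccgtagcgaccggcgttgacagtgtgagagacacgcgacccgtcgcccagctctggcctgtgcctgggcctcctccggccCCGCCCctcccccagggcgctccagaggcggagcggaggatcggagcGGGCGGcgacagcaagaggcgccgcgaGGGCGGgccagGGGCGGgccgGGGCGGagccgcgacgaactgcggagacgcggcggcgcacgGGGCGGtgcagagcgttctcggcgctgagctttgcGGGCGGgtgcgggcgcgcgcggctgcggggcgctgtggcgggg

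The motifs were searched as fixed letters on both strands, and overlapping matches were counted. Windows were found for 64 of the 83 genes, among them 13 of those called higher, 20 of those called lower and 28 of those not called, and for 9401 tested genes in all. Windows on chromosome 18, where Galnt1, Ndst1 and Chsy3 lie, were left out of the search and of these counts. The window of Hs6st1 held 7 GC boxes and that of St6galnac4 held 3 GC boxes and a CCAAT box. That of B4galt4 held an ETS core, a GC box and a CCAAT box, whereas the window of B3galt2 held an E-box and no GC box.

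The FOXO core, searched as GTAAACA, was in no window of a called gene, against 3.00% of all genes with a window. The GC box of Sp1, GGGCGG, was in 11 of the 13 higher and 15 of the 20 lower genes, against 69.5% of all genes. The ETS core, CCGGAA, was in 2 higher and 6 lower genes, against 33.3% of all, and the E-box, CACGTG, in 2 higher and 4 lower genes, against 12.1% of all. The GATA core, AGATAA, was in 1 higher gene (St3gal6) and 3 lower genes (B3gnt7, Fut8 and St6gal1), against 7.89% of all. The AP-1 site, TGANTCA, was in 1 higher and 1 lower gene, against 5.91% of all. The STAT letters, TTCNNNGAA, were in 2 higher genes and 1 lower gene, against 8.29% of all. The CCAAT box was in 5 higher and 9 lower genes, against 43.4% of all. These are matches of letters in short windows, of which some genes have several, a gene counting where any of its windows matched, and they say nothing of whether a factor is bound there.

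Of 13 tested sialyltransferases, which cap chains with sialic acid, 6 were lower in Vsir-/- (46.2%, against 20.1% of all genes) and 3 higher (23.1%, near the 18.9% of all genes), with a median log2 fold change of -0.42. St6galnac4 (chr2:32587095-32599698, + strand), whose enzyme adds a further sialic acid to already sialylated core 1 O-glycans, had 118, 115 and 117 CPM in Vsir-/- libraries, against 46.0, 47.9 and 44.5 CPM in WT libraries. All 3 Vsir-/- values lay far above all WT values, with almost no spread in either genotype (log2 fold change 1.36, standard error 0.09, edgeR adjusted p = 1.39e-06). The next gene downstream on the same strand, St6galnac6, begins 11 bases after the end of St6galnac4 in the annotation and codes for a related enzyme. It had 21.8, 23.1 and 23.3 CPM in Vsir-/- and 23.5, 27.3 and 25.2 CPM in WT and was not called (log2 fold change -0.13, edgeR adjusted p = 0.389).

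St6gal1 (chr16:23224740-23360350, + strand), the enzyme that makes the sialylated N-glycans bound by the B cell lectin CD22, had 13.5, 12.9 and 13.6 CPM in Vsir-/- and 28.9, 26.9 and 31.8 CPM in WT. Its level was lower in every Vsir-/- library than in any WT library (log2 fold change -1.10, standard error 0.11, edgeR adjusted p = 4.01e-05). St3gal4, which caps galactose on N-acetyllactosamine and takes part in selectin ligands, had 62.3, 57.3 and 58.8 CPM in Vsir-/- and 74.9, 74.6 and 79.5 CPM in WT. Its fall was small (log2 fold change -0.33, edgeR adjusted p = 0.0118), although the genotypes did not overlap.

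Other sialyltransferases are named here after their values were seen. The fall of St3gal2, an enzyme of O-glycan and ganglioside sialylation, was close to 2-fold, at 24.3, 22.2 and 18.0 CPM in Vsir-/- and 42.2, 40.1 and 45.7 CPM in WT (log2 fold change -0.96, edgeR adjusted p = 2.09e-04). St6galnac2, which sialylates the first sugar of O-glycans, had 1.71, 2.28 and 2.84 CPM in Vsir-/- and 5.29, 7.09 and 5.82 CPM in WT (log2 fold change -1.39). St3gal1, which caps core 1 O-glycans on T lymphocytes, also fell (log2 fold change -0.59), whereas St3gal6, an enzyme of selectin ligand synthesis, rose (log2 fold change 0.57). The ganglioside enzymes split. The GD3 synthase St8sia1 rose at a very low level, 41 counts over the Vsir-/- libraries and 12 over the WT libraries, and the GM3 synthase St3gal5 had 22.7 ± 1.30 CPM in Vsir-/- and 26.5 ± 0.839 CPM in WT (SD, n = 3 each) and was not called.

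Enzymes that extend, branch and cap N-acetyllactosamine, the repeating chain of galactose and N-acetylglucosamine, fell more often than they rose. Of 11 tested, 2 were called higher (18.2%, near the 18.9% of all genes) and 5 lower (45.5%, against 20.1%), with a median log2 fold change of -0.52. B3galt2 (chr1:143640664-143654614, + strand), a galactosyltransferase that acts on terminal N-acetylglucosamine, had 33.3, 25.9 and 25.2 CPM in Vsir-/- and 8.86, 8.29 and 8.67 CPM in WT. The lowest Vsir-/- library stood well above the highest WT library (log2 fold change 1.74, standard error 0.14, edgeR adjusted p = 7.71e-06).

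B4galt4 (chr16:38742264-38769049, + strand), another galactosyltransferase, which prefers sulfated N-acetylglucosamine, moved the other way. Its CPM were 1.84, 1.80 and 1.54 in Vsir-/- and 8.93, 6.27 and 8.79 in WT, a fall in every library at a low level (log2 fold change -2.16, standard error 0.21, edgeR adjusted p = 2.65e-05). B4galt1, the main galactosyltransferase of N-glycans, had 56.3, 54.9 and 45.4 CPM in Vsir-/- and 76.0, 68.1 and 90.6 CPM in WT (log2 fold change -0.55, edgeR adjusted p = 0.00517), again without overlap. B3gnt2, the main enzyme that lengthens these chains, had 87.8, 73.7 and 85.7 CPM in Vsir-/- and 74.5, 67.4 and 69.7 CPM in WT and was not called (edgeR adjusted p = 0.0603). Of its exons, 66.0% share bases with other annotated genes, and the strand setting of the counting was not given in the sources used here, so its value is uncertain.

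Of the rest of this group, named after their values were seen, Gcnt2, which makes the branches of the I blood group, rose at a low level, with 2.86, 2.58 and 2.96 CPM in Vsir-/- and 0.829, 0.788 and 1.60 CPM in WT (log2 fold change 1.44). B3gnt7 and B3gnt8, extenders of keratan sulfate and of N-acetyllactosamine, fell at 2.20 CPM or less in WT for B3gnt7 and 2.42 CPM or less for B3gnt8, with log2 fold changes of -1.54 and -1.31. B4galnt4, which caps N-acetylglucosamine with N-acetylgalactosamine, fell with a log2 fold change of -0.52.

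**Figure D3:**
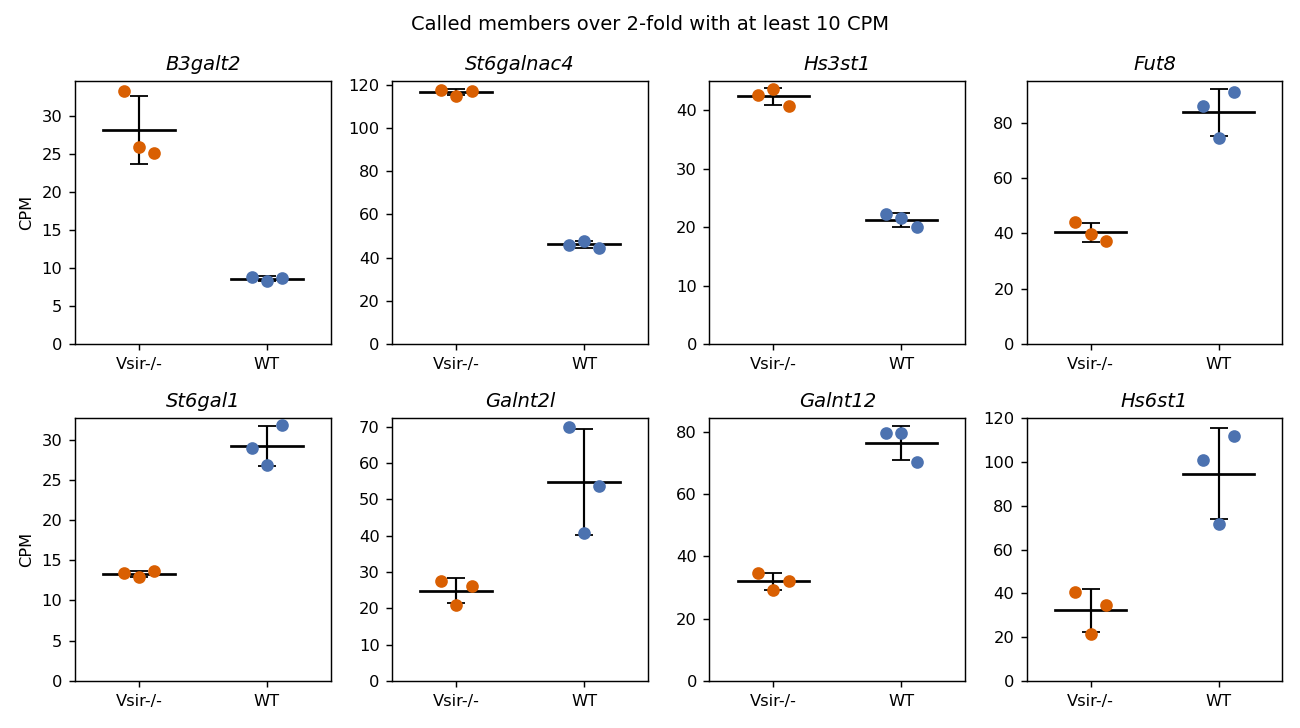
CPM in each library (points), with the mean (horizontal line) and SD (error bar), n = 3 libraries per genotype, Vsir-/- left of WT, for the called genes that changed at least 2-fold and reached 10 CPM in either genotype. B3galt2, St6galnac4 and Hs3st1 were higher in Vsir-/-, and Fut8, St6gal1, Galnt2l, Galnt12 and Hs6st1 lower. In no panel do the genotypes overlap.

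Enzymes that start mucin-type O-glycans by placing N-acetylgalactosamine on serine or threonine gave 0 higher and 3 lower genes of 9 tested by edgeR (median log2 fold change -0.23). The lower share was 33.3%, against 20.1% of all genes, of which 18.9% were called higher. Of the 9, 3 had an unadjusted p under 0.05, the same 3 that were called, and DESeq2 and limma voom also gave 0 higher and 3 lower. Galnt12 (chr4:47091909-47123070, + strand) fell most, with 34.7, 29.1 and 32.0 CPM in Vsir-/- and 79.5, 79.8 and 70.3 CPM in WT. Every WT library was more than 2 times every Vsir-/- library (log2 fold change -1.23, standard error 0.11, edgeR adjusted p = 1.18e-05). Galnt6 had 72.7, 77.0 and 71.4 CPM in Vsir-/- and 105, 92.6 and 101 CPM in WT, a smaller fall without overlap (log2 fold change -0.41, edgeR adjusted p = 0.00396). Galnt1, the most abundant starter, had 282, 229 and 251 CPM in Vsir-/- and 318, 217 and 402 CPM in WT. Its WT libraries spread widely, and it was not called (edgeR adjusted p = 0.265). With 1 library left out, the lowest edgeR adjusted p was 0.0244 for Galnt1. For Galnt11, named after its values were seen, it was 0.0357, against 0.380 over all libraries. The third called gene, Galnt2, shares 90.0% of its exon bases with other annotated genes, so its fall (log2 fold change -0.39) is uncertain.

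The 4 tested genes that build O-glycan cores and branches split. Gcnt4 (chr13:96924689-96950906, + strand), one of the core 2 branching enzymes, had 8.95, 6.07 and 6.91 CPM in Vsir-/- and 2.74, 1.37 and 3.92 CPM in WT, and rose (log2 fold change 1.53, standard error 0.32, edgeR adjusted p = 0.00337). Gcnt1, the core 2 enzyme best known from leukocytes, was at a higher level and fell, with 26.0, 26.0 and 24.1 CPM in Vsir-/- and 32.8, 31.4 and 37.4 CPM in WT (log2 fold change -0.39, edgeR adjusted p = 0.0168). Per kilobase of exon Gcnt1 had 4.41 CPM in Vsir-/- and 5.88 in WT, above Gcnt4 at 1.44 and 0.526. Gcnt7 had 3.06 ± 0.272 CPM in Vsir-/- and 2.00 ± 0.183 CPM in WT and was called higher (edgeR adjusted p = 0.0426), and B3gnt3, which extends core 1, had 0.865 ± 0.0752 and 1.23 ± 0.0600 CPM (SD, n = 3 each) and was not called.

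Enzymes that branch N-glycans gave 0 higher and 3 lower genes of 5 tested by edgeR (median log2 fold change -0.38). The lower share was 60.0%, against 20.1% of all genes, of which 18.9% were called higher. An unadjusted p under 0.05 was found for the 3 lower genes alone, and DESeq2 and limma voom gave the same counts. Without Vsir-/- replicate 3, 1 gene was called higher, Mgat4a, named after its values were seen. It had 45.2, 42.7 and 26.9 CPM in Vsir-/- and 31.6 ± 3.81 CPM in WT (SD, n = 3), with a log2 fold change of 0.30 and an edgeR adjusted p of 0.212 over all libraries, and of 0.00926 without that one. Mgat1, which starts the complex type of N-glycan, had 103, 103 and 98.9 CPM in Vsir-/- and 129.6, 138 and 136 CPM in WT. Its spread was small, so that a modest fall passed the test (log2 fold change -0.38, standard error 0.08, edgeR adjusted p = 0.00456). Mgat4b (chr11:50210890-50235103, + strand), which adds a further branch, had 59.4, 68.3 and 58.4 CPM in Vsir-/- and 94.9, 97.7 and 87.9 CPM in WT, a larger fall without overlap (log2 fold change -0.57, edgeR adjusted p = 0.00124). Mgat2 had 228, 236 and 203 CPM in Vsir-/- and 224, 217 and 236 CPM in WT, and its log2 fold change of 0.01 had a 95% confidence interval of -0.18 to 0.20. Mgat5, named after its values were seen, makes the branch known for carrying galectin ligands on T cells and fell with a log2 fold change of -0.50.

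Among fucosyltransferases, edgeR called 0 higher and 2 lower of 5 tested (median log2 fold change -0.49). The lower share was 40.0%, against 20.1% of all genes, of which 18.9% were called higher. Of the 5, 4 had an unadjusted p under 0.05, all of them lower, against 6221 of all 13166 genes in either direction. DESeq2 and limma voom gave the same counts of calls. Fut8 (chr12:77238125-77476338, + strand), which alone adds the core fucose of N-glycans, had 44.2, 39.8 and 37.4 CPM in Vsir-/- and 85.9, 74.4 and 90.9 CPM in WT. The fall was about 2-fold in mean, with a wide gap between the genotypes (log2 fold change -1.02, standard error 0.11, edgeR adjusted p = 4.04e-05). Fut11 had 18.9, 16.2 and 17.0 CPM in Vsir-/- and 25.7, 24.5 and 28.4 CPM in WT, again without overlap (log2 fold change -0.56, edgeR adjusted p = 0.00332). Fut7, named after its values were seen, finishes the selectin ligand sialyl Lewis x in leukocytes and had 5.45 ± 0.679 CPM in Vsir-/- and 7.16 ± 0.675 CPM in WT (SD, n = 3 each), which was not called (edgeR adjusted p = 0.106).

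**Figure D4:**
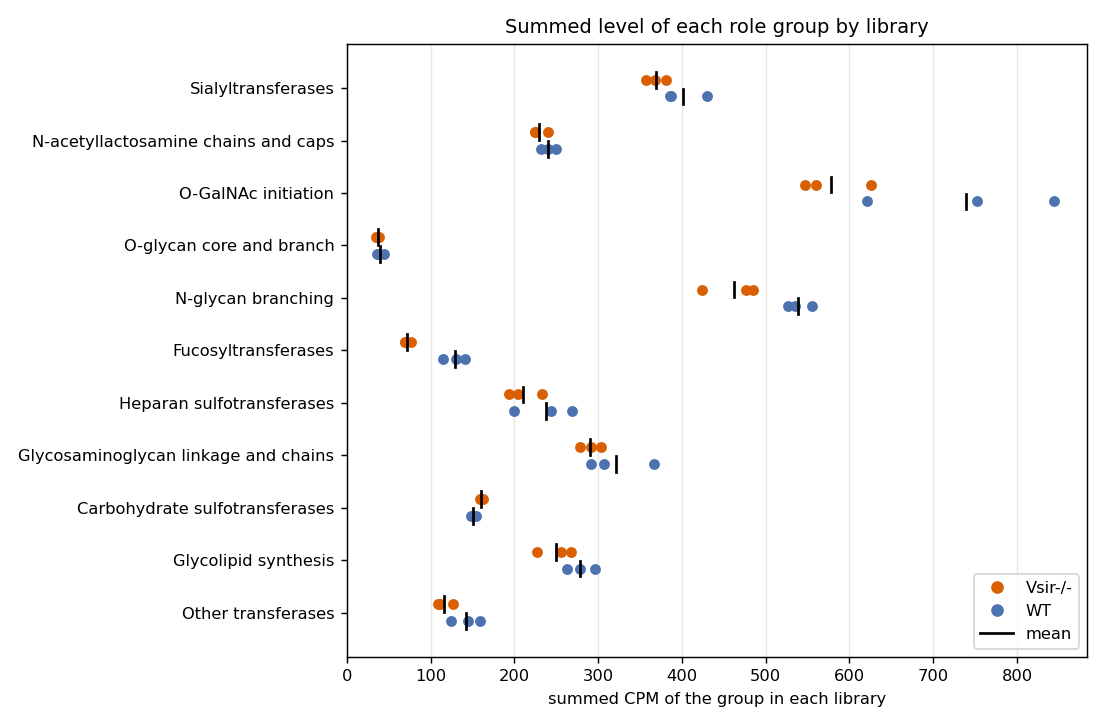
Summed CPM of the genes of each role group in each library (points, black lines are means), Vsir-/- above WT within each group. Fucosyltransferases summed to 68.8 to 76.3 CPM in Vsir-/- and 115 to 140.4 CPM in WT, and N-glycan branching enzymes to 423 to 485 and 527 to 555 CPM. Sums follow the abundant genes of a group and are for comparing genotypes, not groups.

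Sulfotransferases of heparan sulfate, which set its binding sites for proteins, changed in opposite directions. Of 7 tested, 2 were called higher (28.6%, against 18.9% of all genes) and 1 lower (14.3%, against 20.1%), with a median log2 fold change of 0.31. The higher count was 4 by limma voom and also without WT replicate 3, 3 without Vsir-/- replicate 3, and 1 without any of the other 4 libraries in turn. Hs3st1 (chr5:39613935-39755475, - strand), which makes the rare modification that antithrombin binds, had 42.7, 43.6 and 40.8 CPM in Vsir-/- and 22.2, 21.5 and 20.0 CPM in WT. The rise was even across libraries (log2 fold change 1.02, standard error 0.10, edgeR adjusted p = 3.29e-05).

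Hs6st1 (chr1:36068400-36106446, + strand), the enzyme of the common sulfate on the sixth carbon of glucosamine, had 40.6, 21.5 and 34.6 CPM in Vsir-/- and 101, 71.6 and 112 CPM in WT. It spread more than Hs3st1 in both genotypes, yet the highest Vsir-/- library lay below the lowest WT library (log2 fold change -1.52, standard error 0.22, edgeR adjusted p = 3.33e-04). Ndst1, which starts the sulfation of heparan chains, had 74.2, 65.9 and 55.4 CPM in Vsir-/- and 54.4, 46.5 and 59.9 CPM in WT, overlapped between genotypes and was not called (edgeR adjusted p = 0.0766). Hs2st1, named after its values were seen, was called higher with a log2 fold change of 0.44, and its genotypes overlapped, as those of no other called gene did.

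Of the enzymes that make the linkage and backbone of heparan and chondroitin sulfate, 2 of 10 tested were called higher and 4 lower (median log2 fold change -0.23). The shares were 20.0% higher and 40.0% lower, against 18.9% and 20.1% of all genes. The lower count was 2 or 3 when 1 library was left out. Ext1, a partner of Ext2 in the heparan polymerase (chr15:53064038-53346159, - strand) had 37.1, 29.3 and 31.6 CPM in Vsir-/- and 24.1, 19.5 and 23.6 CPM in WT and rose (log2 fold change 0.58, standard error 0.13, edgeR adjusted p = 0.00507). Ext2 had 124, 128 and 111 CPM in Vsir-/- and 155, 138 and 149 CPM in WT (log2 fold change -0.25, edgeR adjusted p = 0.0452), and its call was lost in 12 of the 14 alternative fits. Per kilobase Ext2 stood above Ext1 in both genotypes, at 16.5 against 4.05 CPM in Vsir-/- and 20.1 against 2.77 CPM in WT.

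B4galt7, which adds the first galactose of the linkage to proteoglycans, fell, with 26.2, 22.5 and 26.3 CPM in Vsir-/- and 37.0, 40.4 and 33.4 CPM in WT (log2 fold change -0.54, edgeR adjusted p = 0.00544). Chsy1, a chondroitin synthase, spread widely, with 46.2, 43.0 and 82.0 CPM in Vsir-/- and 88.4, 32.6 and 36.9 CPM in WT. One library of each genotype was high, and no difference was detectable (edgeR adjusted p = 0.758). Named after their values were seen, Xylt1, which places the first sugar of the linkage, and Extl1 fell at 5.05 CPM or less in every library of Xylt1 and 1.82 CPM or less of Extl1 (log2 fold changes -1.52 and -1.92), and Extl2 rose (0.56).

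Other carbohydrate sulfotransferases gave 2 higher and, by edgeR, 0 lower genes of 6 tested, with 2 at an unadjusted p under 0.05 (median log2 fold change 0.04). The higher share was 33.3%, against 18.9% of all genes, of which 20.1% were called lower. The counts were the same by DESeq2 and limma voom. Chst15 (chr7:132235780-132317228, - strand), which makes the doubly sulfated chondroitin known from mast cells, had 5.27, 6.85 and 4.88 CPM in Vsir-/- and 2.81, 2.23 and 1.48 CPM in WT. It was higher in every Vsir-/- library (log2 fold change 1.41, standard error 0.25, edgeR adjusted p = 0.00139). Chst11, a chondroitin sulfotransferase, had 27.2, 19.8 and 22.1 CPM in Vsir-/- and 16.8, 18.9 and 13.3 CPM in WT, with a narrow gap (log2 fold change 0.52, edgeR adjusted p = 0.0319). Its partner of the same reaction, Chst12, had 91.4, 104 and 96.2 CPM in Vsir-/- and between 91.3 and 98.6 CPM in WT, with a log2 fold change of 0.06 and a 95% confidence interval of -0.14 to 0.26.

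Glycolipid enzymes gave 1 higher and 1 lower gene of 4 tested, where 18.9% of all genes were called higher and 20.1% lower. B3galt4 (chr17:33949909-33951488, - strand), the galactosyltransferase that makes the ganglioside GM1, had 6.73, 7.33 and 7.22 CPM in Vsir-/- and 14.9, 13.4 and 11.6 CPM in WT and fell (log2 fold change -0.88, standard error 0.14, edgeR adjusted p = 7.95e-04). B4galt5, which makes lactosylceramide, the precursor of gangliosides, had 46.7, 51.7 and 58.8 CPM in Vsir-/- and 40.4, 43.4 and 39.2 CPM in WT and rose (log2 fold change 0.38, edgeR adjusted p = 0.0206). B4galnt1, between them in the pathway, had 181 ± 18.2 CPM in Vsir-/- and 215 ± 14.1 CPM in WT and was not called (edgeR adjusted p = 0.102), and neither was the globoside enzyme B3galnt1, at 9.14 ± 1.87 and 8.73 ± 0.627 CPM (SD, n = 3 each).

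The remaining 4 genes have roles outside these groups or none given here. Galnt2l, which the reference annotation does not list under this symbol, had 27.4, 20.9 and 26.1 CPM in Vsir-/- and 70.0, 40.7 and 53.6 CPM in WT (log2 fold change -1.11, edgeR adjusted p = 7.50e-04). Its counts were fractional in all 6 libraries, which can come of reads shared between genes, so the value is uncertain. The same holds for B3gntl1, B3galnt2 and B3gnt9 here and, among the genes above, for B3gnt2, B3gnt8, B4galnt1, Galnt1, Galnt2, St3gal6 and St6galnac2, and counts were fractional in 4 or 5 libraries for Ext2, Mgat1 and B3galt2. B3gntl1 fell, with 6.16, 4.27 and 8.27 CPM in Vsir-/- and 11.4, 13.7 and 11.7 CPM in WT (log2 fold change -0.96, edgeR adjusted p = 0.00525). B3galnt2, which builds the glycan of dystroglycan, and B3gnt9 were not called, at 76.1 ± 7.33 and 8.27 ± 0.815 CPM in Vsir-/- and 64.7 ± 6.49 and 10.6 ± 1.32 CPM in WT (SD, n = 3 each).

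The 5 untested genes held few counts over 3 libraries each. St6galnac5, a ganglioside sialyltransferase, had 5 counts in Vsir-/- and 65 in WT, a ratio after scaling by library totals of 0.0977 (95% exact interval 0.0307 to 0.240, for counting error only). Hs3st3a1 had 3 and 15 counts (ratio 0.254, interval 0.0472 to 0.898) and Galnt9 5 and 11 counts. B3gnt5 had 26 and 24 counts and Chsy3 18 and 17 counts in Vsir-/- and WT, and no difference was detectable at this depth.

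Leaving out 1 library at a time, 30 of the 42 called genes kept their call each time, 9 higher and 21 lower, and all genes named above with a change over 2-fold and at least 10 CPM were among them. The other 12 had smaller or low-level changes. The calls of Ext2 and Gcnt7 were lost whichever library was left out (edgeR adjusted p of 0.0709 to 0.177 and 0.0505 to 0.149). St3gal4 lost its call without Vsir-/- replicate 2 (edgeR adjusted p = 0.0581) and St8sia1 without WT replicate 2 (0.0539). Gcnt1 lost it without Vsir-/- replicate 2 or 3, and Extl1 without replicate 2 of either genotype (up to 0.0574 and 0.0563). Chst11 lost it without replicate 1 of either genotype or WT replicate 3 (up to 0.119), B4galt5 without Vsir-/- replicate 3 or WT replicate 1 or 3 (up to 0.0810), and Galnt2 without Vsir-/- replicate 2 or WT replicate 1 or 3 (up to 0.149). Hs2st1 lost it without replicate 1 or 2 of either genotype (up to 0.0920), B3gnt8 without Vsir-/- replicate 1 or 3 or WT replicate 1 or 2 (up to 0.0745), and St6galnac3 without Vsir-/- replicate 2 or any WT replicate (up to 0.105).

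Lists of genes that supply, complement, carry, bind or remove glycans give the setting of these enzymes. Of 30 tested genes for the supply of sugar and sulfate donors, 6 were called higher (20.0%) and 8 lower (26.7%), against 18.9% and 20.1% of all genes (median log2 fold change -0.04). Amdhd2, which deacetylates N-acetylglucosamine phosphate, fell to 17.2 ± 0.609 CPM in Vsir-/-, against 64.9 ± 4.73 CPM in WT, and Gfpt2, an entry enzyme of hexosamine synthesis, rose to 10.1 ± 2.02 CPM, against 3.06 ± 0.518 CPM in WT (log2 fold changes -1.89 and 1.72, edgeR adjusted p = 5.65e-07 and 1.05e-04). Few Golgi transporters of sugar donors were called, 1 of 13 higher (Slc35a4, log2 fold change 0.31) and 1 lower (Slc35d2, -0.55). That is 7.69% each, against 18.9% and 20.1% of all genes.

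Of 39 tested glycan enzymes outside the naming rule, 10 were higher (25.6%) and 7 lower (17.9%), and the 43.6% called in either direction is near the 38.9% of all genes. Ggta1, which makes the alpha-galactose epitope of non-primate mammals, had 268 ± 16.1 CPM in Vsir-/- and 118 ± 5.64 CPM in WT (log2 fold change 1.21), and Ust, which sulfates uronic acid in chondroitin, had 14.0 ± 1.69 and 3.16 ± 0.865 CPM (2.19). Man2a2, a mannosidase that acts between Mgat1 and Mgat2, had 107 ± 9.22 CPM in Vsir-/- and 265 ± 18.9 CPM in WT (log2 fold change -1.28, edgeR adjusted p = 3.49e-06).

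Of 15 tested protein cores that carry these chains, 3 were higher (20.0%) and 4 lower (26.7%), against 18.9% and 20.1% of all genes. The heparan sulfate proteoglycan Sdc4 had 44.7 ± 4.36 CPM in Vsir-/- and 6.14 ± 1.21 CPM in WT (log2 fold change 2.88, edgeR adjusted p = 5.52e-07), and the selectin ligand Selplg 538 ± 22.7 and 898 ± 59.4 CPM (-0.71). Of 20 glycan-binding proteins listed, 10 were in the data and 9 were tested. Of the 9, 1 was higher (11.1%) and 6 lower (66.7%), against 18.9% and 20.1% of all genes. The scavenger receptor Stab2, which binds hyaluronan, fell to 86.4 ± 2.92 CPM in Vsir-/-, against 682 ± 27.2 CPM in WT (log2 fold change -2.95, edgeR adjusted p = 1.77e-08), while its relative Stab1 had 55.6 ± 5.35 and 9.44 ± 1.24 CPM (2.58). Of 23 tested genes that remove glycans, 3 were higher (13.0%) and 12 lower (52.2%), against 18.9% and 20.1% of all genes (median log2 fold change -0.35). Among the lower genes were the lysosomal mannosidase Man2b1 (-0.79) and the sialidase Neu3 (-0.94). SDs are over 3 libraries per genotype.

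**Figure D5:**
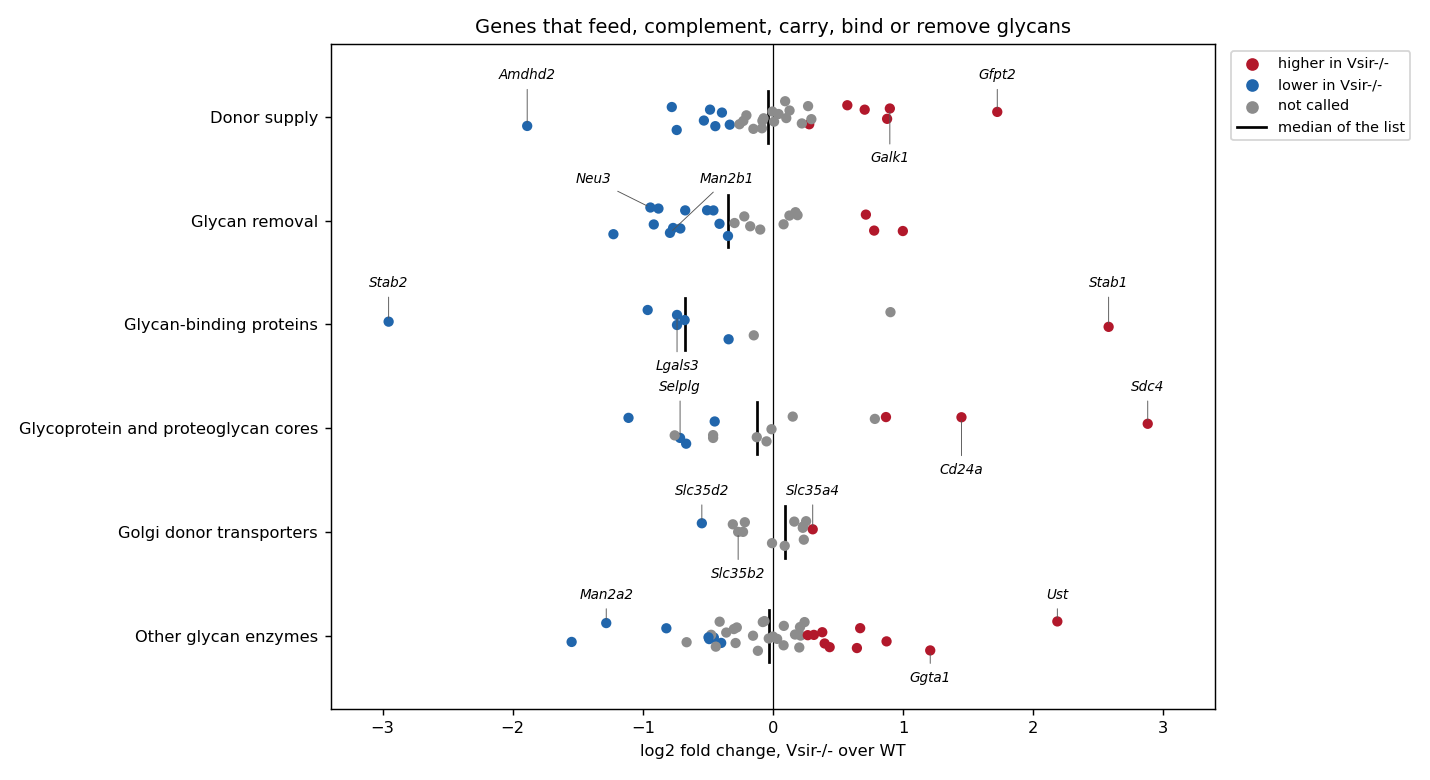
Log2 fold change of Vsir-/- over WT (x axis) of the tested genes in 6 lists related to glycans, 1 point per gene, with vertical position inside a list at random and a black line at the list's median. Red points were called higher in Vsir-/-, blue points lower and grey points not. Up to 3 genes of smallest p in each list are named, among them Stab2 at -2.95 and Sdc4 at 2.88, and the median of genes that remove glycans lies at -0.35.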

How the data were processed

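RNA of sorted lung ILC2s was sequenced on a NextSeq 500 in 3 Vsir-/- and 3 WT libraries. The gene table that the authors deposited holds estimated counts. The submitters' processing notes name Partek 10.0, STAR 2.7.8, DESeq2 and the mm10 build. The annotation, filter and strand setting are not given in the sources used here. Counts were rounded to whole numbers. All columns of samples were used.

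filterByExpr (min.count 10, min.total.count 15) left 13166 genes. edgeR 4.0.16 (R 4.3.3; TMM, quasi-likelihood F test, no covariate) compared the genotypes, with Benjamini-Hochberg adjustment over all tested genes at 0.05, and the methods were tested on simulated data. Standard errors are log2 coefficients divided by the root of F. Positions and exon lengths are from GENCODE M21 (GRCm38), found for 81 of 83 genes. Exact intervals and limits cover counting error only.

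Members and lists were chosen with earlier results of these data known. Named were called members with an absolute log2 fold change of at least 1 and at least 10 CPM, the 2 most abundant and the 2 of smallest p per role group, all members of groups with 4 or fewer tested, and up to 3 genes per related list. Others were named after their values were seen. Some genes of the related lists count in their totals but are not reported here by name. DESeq2 1.42.0, limma 3.58.1 (voom), other filters and thresholds and left-out libraries were alternatives. Libraries of a genotype differed by more than sampling noise (chi-square divided by its degrees of freedom, 10.6 to 28.0), and all 6 were kept. In both genotypes the labels of replicates 1 and 2 have a number in common, and the suffix S0 is found for WT replicates 2 and 3.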

Additional observations from a re-analysis of the deposited data

How the results depend on the processing

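Against 14 higher and 28 lower genes, RLE factors gave 14 and 27, DESeq2 13 and 29, limma voom 17 and 29, and no filter 16 and 28. Higher calls fell to 9 with genes of at least 5 CPM on average, 9 with replicates 1 and 2 summed, 9 at an adjusted p under 0.01, 8 with a change over 1.5-fold, and 6 with WT replicate 1 as the single library without the S0 suffix, which is assumed to vary like the others. Lower calls fell to 15 with a change over 1.5-fold. A further fit left out the libraries with the S0 suffix. WT replicate 1 is then the only WT library, and it is assumed to vary like the others. Leaving out 1 library gave 11 to 15 higher and 24 to 29 lower. No call reversed under these alternatives, and 15 of the 42 calls (5 higher, 10 lower) were kept in every one of the 14 alternative fits that tested the gene. These include St6galnac4, B3galt2, Hs3st1, St6gal1, Fut8, Galnt12, Hs6st1 and B4galt4. The cause of the lost calls was not tested. Several of these fits used fewer libraries or genes.

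Equal replicate numbers did not pair the libraries (correlations of deviations over 8567 genes -0.0837, 0.202 and -0.443). A fit with a replicate block gave 11 higher and 25 lower of the 78 genes and called 31.1% of all genes. Depth limits the genes under about 1 CPM, such as St6galnac5 and St8sia1.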

Other observations

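Genes of the route to UDP-N-acetylglucosamine, the donor of the Mgat, Gcnt and B3gnt enzymes, were called in both directions in Vsir-/- aILC2s. They are described here after their values were seen. Gfpt1, which with Gfpt2 makes glucosamine phosphate, had 121 ± 16.9 CPM in Vsir-/- and 75.8 ± 15.2 CPM in WT (log2 fold change 0.71, edgeR adjusted p = 0.00321). The following steps were also higher, Gnpnat1 at 72.4 ± 9.36 and 40.1 ± 1.78 CPM (0.88) and Pgm3 at 59.4 ± 1.52 and 40.7 ± 1.36 CPM (0.57). The last step, Uap1, was lower, at 46.9 ± 2.89 CPM in Vsir-/- and 62.9 ± 4.61 CPM in WT (log2 fold change -0.39, edgeR adjusted p = 0.00861). SDs are over 3 libraries per genotype.

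The fringe enzymes, which lengthen O-fucose on Notch receptors, did not all behave alike in these libraries. Lfng had 30.4, 37.3 and 33.8 CPM in Vsir-/- and 96.7, 129.6 and 74.5 CPM in WT, without overlap (log2 fold change -1.55, standard error 0.19, edgeR adjusted p = 1.11e-04). Mfng had 82.4 ± 1.39 CPM in Vsir-/- and 85.7 ± 8.29 CPM in WT, and Rfng 43.0 ± 5.09 and 41.3 ± 3.10 CPM (SD, n = 3 each), and neither was called. Pofut1, which places the O-fucose, was higher (log2 fold change 0.44, edgeR adjusted p = 0.00942).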
